A study of Danio rerio with 10 samples.

Results

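The genes described here serve the calcium store of muscle, the sarcoplasmic reticulum, and the release of calcium from it. They were the 10 zebrafish genes atp2a1, atp2a1l, atp2a2a, casq1a, casq1b, casq2, ryr1a, ryr1b, jph2 and cacna1sb, taken by name from the 24860 genes that the authors' tables of enriched chromatin regions list. They held 36 of 41586 regions of H3K27Ac, 14 of 18746 regions of H3K4me3 and 16 of 18120 regions of H3K27me3. H3K27Ac is histone H3 acetylated at lysine 27, found at active promoters and enhancers. H3K4me3, trimethylation of lysine 4, marks promoters, and H3K27me3, trimethylation of lysine 27, is laid down by Polycomb proteins at silenced genes.

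A muscle fibre contracts when calcium leaves the reticulum and relaxes when it is pumped back. The voltage sensor in the cell membrane, whose pore subunit is encoded by cacna1sb, opens the ryanodine receptors (ryr1a, ryr1b), which release the calcium. Calsequestrins (casq1a, casq1b, casq2) bind calcium inside the store, ATP-driven pumps of the SERCA family (atp2a1, atp2a1l, atp2a2a) refill it, and junctophilin (jph2) holds the store against the cell membrane so that sensor and channel meet.

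Chromatin came from the lateral rectus, a muscle that turns the eye, of adult zebrafish aged 4 to 18 months, described as wild-type in the design and as wild-type and α-actin::EGFP in the growth protocol. A piece of 0.5 to 1.0 mm, about 50% of the muscle, had been cut out, and tissue was taken from uninjured fish (control), and 9 hours and 18 hours after the injury (hpi). Tissue of 119 fish was pooled for control, of 192 for 9 hpi and of 200 for 18 hpi, and each mark has 1 sequenced chromatin immunoprecipitation library per time, 9 in all. With 1 library per mark and time there was no replicate check and no test, and how many tags each library held is unknown.

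Values below are average pileups, the mean number of overlapping tags per position of a region. They are not totals over a region, but the average of a wide region can include stretches of low signal. A relative log2 change is log2((pileup + 1)/(control pileup + 1)) minus its median over all regions of the mark above the 25th percentile of signal. That median was 0.23 at 9 hpi and −0.16 at 18 hpi for H3K27Ac, and lay between −0.06 and 0 for the other marks. "Fell" and "rose" stand for a relative change of at least 2-fold. The start region of a gene is the region whose middle lies nearest to the gene's annotated start.

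H3K27Ac at the start regions was lower after injury for most of these genes. At 9 hpi, 6 of 10 start regions fell, 1 rose and 3 lay between. Among start regions of all genes, 9.91% fell and 7.04% rose at that time. At 18 hpi, 7 fell and 0 rose, against 8.36% and 7.07% of all start regions. The 10 had a median relative log2 change of −1.26 for 9 hpi and −1.32 for 18 hpi, where that of all start regions was 0.11 and −0.0023. All 10 start regions held an interval called in control, and regions are unions of called intervals, so their bounds favour places with control signal. Of the 14524 start regions of all genes with a control interval, 11.3% fell and 2.91% rose at 9 hpi, and 9.5% fell and 2.05% rose at 18 hpi.

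In control, 18 of 19 skeletal muscle marker genes with an H3K27Ac start region, among them acta1a, acta1b, myhz2 and myod1, held a called interval there, and no marker was at 0. Of all start regions 87.8% held one in control, as did those of 6 of 6 endothelial and 5 of 5 erythrocyte markers. The shares of all start regions that fell and rose in H3K27Ac were 9.91% and 7.04% at 9 hpi, and 8.36% and 7.07% at 18 hpi. In H3K4me3 these shares were 2.84% and 3.34% at 9 hpi, and 3.02% and 4.41% at 18 hpi. After injury muscle markers were lower too. In H3K27Ac, 13 of 19 fell at 9 hpi and 12 at 18 hpi, and the sum of their pileups was 322 in uninjured muscle, 185 at 9 hpi and 135 at 18 hpi. In H3K4me3, 8 of 14 fell at 9 hpi and 5 at 18 hpi, with sums of 246 (control), 141 (9 hpi) and 158 (18 hpi). Of the leukocyte markers, 5 of 12 rose in H3K27Ac at 9 hpi and 3 at 18 hpi, 0 fell, and the sums were 146 (control), 299.8 (9 hpi) and 177 (18 hpi). In H3K4me3, 6 of 11 leukocyte markers rose at 9 hpi and 7 at 18 hpi. A control interval lay in 9 of the 12 leukocyte start regions of H3K27Ac and in 7 of the 11 of H3K4me3. In H3K27Ac at 9 hpi, 6 of 8 fibroblast and tendon markers, 4 of 7 nerve markers, 3 of 5 erythrocyte markers, 1 of 6 markers of smooth muscle and heart and 0 of 6 endothelial markers fell. At 18 hpi the numbers were 5, 5, 5, 1 and 0. In H3K27Ac, 1 fibroblast and tendon marker rose at each time, and 1 nerve marker and 1 marker of smooth muscle and heart rose at 18 hpi. In H3K4me3, 1 of 7 nerve markers fell at each time. Of the 8 fibroblast and tendon, 5 erythrocyte, 2 smooth muscle and heart and 6 endothelial markers, 0 fell in H3K4me3 at either time. There, 1 fibroblast and tendon marker rose at each time. The part of these shifts in the results for the calcium genes was not tested, and fewer muscle nuclei in the pooled tissue and less of a mark per nucleus cannot be told apart.

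**Figure D1:**
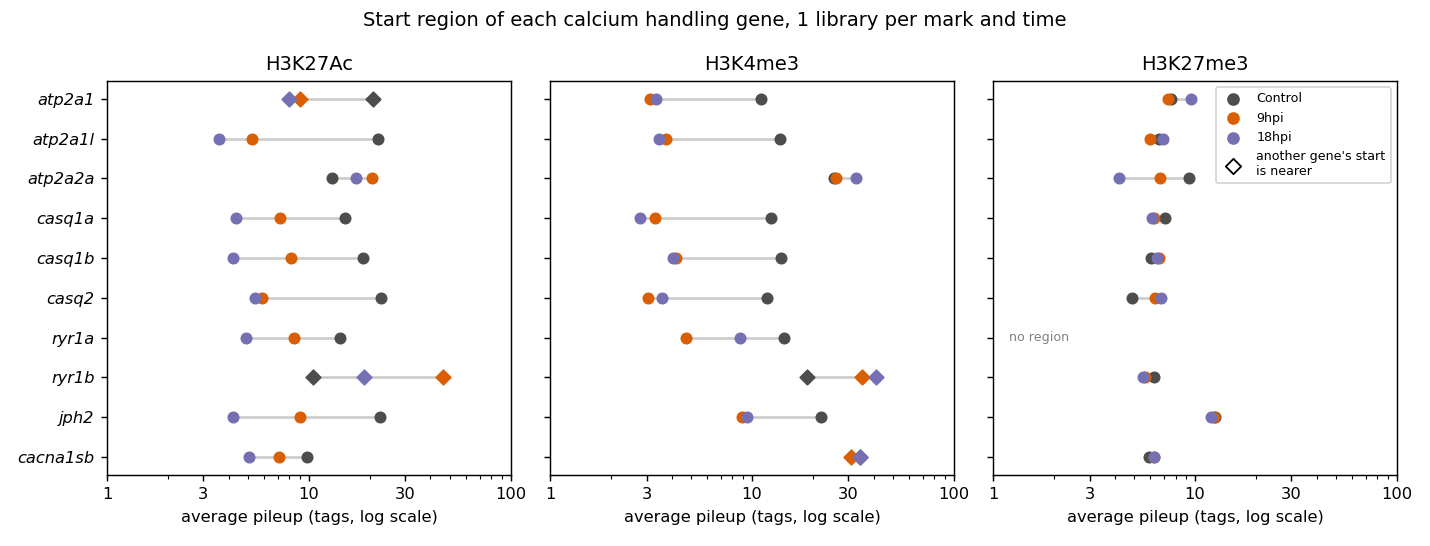
Average pileup (tags, log scale) of the start region of each gene in control (grey), at 9 hpi (orange) and at 18 hpi (violet), for the 3 marks with 1 library per point. Diamonds are regions nearer to the start of another gene; the H3K27Ac and H3K4me3 points of most genes lie left of control after injury, while ryr1b lies right of it. The control point of cacna1sb in H3K4me3 (34.5) is hidden under that of 18 hpi (34.4).

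The 3 pump genes differed from each other. At atp2a1l, a gene of the SERCA1 type, the start region (chromosome 12, 13203801 to 13210800, danRer10) had an H3K27Ac pileup of 22.04 in uninjured muscle, 5.19 at 9 hpi and 3.57 at 18 hpi. Its relative log2 changes of −2.12 and −2.18 lay at the 0.58th and 0.218th percentile of all start regions. A region upstream (chromosome 12, 13193001 to 13200600) had 13.2 (control), 3.37 (9 hpi) and 2.96 (18 hpi). Both regions were low at both times after injury, and neither held a called interval there.

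At atp2a1, the SERCA1 gene whose loss gives the accordion mutant of zebrafish, H3K27Ac in control formed 1 interval of 35800 bp around the gene start (chromosome 3, 25995801 to 26031600), wider than 99.8% of start regions. The region is shared with hsp70, hsp70.2, LOC103910249 and rabep2, and its middle lies nearest to the start of LOC103910249. Its average pileup was 20.7 in control muscle, 9.01 at 9 hpi and 7.93 at 18 hpi (relative log2 changes −1.35 and −1.13). With a pseudocount of 5 its change at 18 hpi was short of 2-fold. At 9 hpi it held 4 separate intervals with 14200 bp in all, and at 18 hpi 4 with 19800 bp. The next region (chromosome 3, 26033401 to 26043600), nearest to the start of rabep2, had 13.2 (control), 25.1 (9 hpi) and 18.8 (18 hpi), higher than in control at both times but below 2-fold.

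The SERCA2 gene atp2a2a, whose mammalian counterpart serves heart and slow muscle, had a start region (chromosome 8, 11649001 to 11653600) with an H3K27Ac pileup of 13.0 in uninjured muscle, 20.5 at 9 hpi and 17.1 at 18 hpi. Its relative log2 changes were 0.39 and 0.52. The highest pileup within it was 60 in control muscle, 130 at 9 hpi and 88 at 18 hpi. Within the gene, 4 further regions between 11267 and 26267 bp from the start had relative log2 changes of −0.66 to −0.16 at 9 hpi and −0.999 to −0.10 at 18 hpi, all short of 2-fold. All 4 held a called interval in uninjured muscle, 2 of them at 9 hpi and 1 at 18 hpi.

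All 3 calsequestrin genes fell in H3K27Ac at both times, casq1a least firmly. The region over the start of casq2, the cardiac type of the protein in mammals (chromosome 9, 33294801 to 33298000), had 22.7 in control muscle, 5.88 at 9 hpi and 5.41 at 18 hpi, relative log2 changes of −2.01 and −1.73. It was the single H3K27Ac region of this gene, with a called interval in control and none afterwards. At casq1a (chromosome 2, 38056601 to 38059600) the values were 15.1 (control), 7.16 (9 hpi) and 4.35 (18 hpi), with changes of −1.21 and −1.43. At casq1b (chromosome 7, 73530001 to 73530800) they were 18.4 (control), 8.11 (9 hpi) and 4.2 (18 hpi), with changes of −1.32 and −1.74. In both genes the pileup was lower at 18 hpi than at 9 hpi, but the median of H3K27Ac also shifted by −0.35 between these times. With that median subtracted, the log2 changes from 9 to 18 hpi were −0.26 at casq1a and −0.46 at casq1b, short of 2-fold. The call of casq1a at 9 hpi ended without centring (−0.98), with a pseudocount of 5 (−0.91) and with centring among regions of like mean signal (−0.82), and that at 18 hpi with a pseudocount of 5 (−0.98).

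Other regions near the starts of casq1a and casq1b also fell. At casq1a, regions with their middles 2630 bp upstream and 4070 and 6870 bp downstream of the start changed by −1.95, −1.72 and −1.51 at 9 hpi. The upstream one lies nearest to the start of c1ql4l. At casq1b, the regions 3873 bp into the gene and 3127 bp upstream of it changed by −1.84 and −1.84 at 9 hpi and by −1.14 and −1.26 at 18 hpi. These regions of both genes held a called interval in control alone and were listed through it, so their bounds favour control signal. All but the upstream one of casq1a lay below the 25th percentile of mean signal. Among all H3K27Ac regions with a gene, 18.7% fell at 9 hpi and 12.8% at 18 hpi. Farther out, both genes had regions that did not fall. The region 17170 bp from the start of casq1a, nearest to si:rp71-1g18.1, had 8.87 in uninjured muscle, 12.0 at 9 hpi and 10.6 at 18 hpi. The region 16027 bp upstream of casq1b, nearest to pea15, had 9.79 (control), 18.8 (9 hpi) and 15.8 (18 hpi). Inside casq1b, a region 8473 bp from the start, listed for that gene alone, changed by −0.30 at 9 hpi and −0.37 at 18 hpi. Another inside it, 21473 bp from the start and nearest to LOC103909055, changed by −0.36 and −0.85.

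Of the release channels, ryr1a, the form of slow muscle in zebrafish, had 1 H3K27Ac region (chromosome 10, 33463001 to 33469200) with 14.2 in control muscle, 8.39 at 9 hpi and 4.90 at 18 hpi. With relative log2 changes of −0.92 and −1.21, it passed 2-fold at 18 hpi and came close to it at 9 hpi. Other settings moved these calls: at 9 hpi it passed with centring on start regions of all genes (−1.03) or maximum pileups (−1.06), and at 18 hpi it missed with a pseudocount of 5 (−0.83). For ryr1b, the form of fast muscle, no H3K27Ac or H3K4me3 region lay over the annotated start (chromosome 18, 35755584). The nearest H3K27Ac region (chromosome 18, 35757001 to 35763000) had its middle 4416 bp upstream of ryr1b and 1577 bp from the start of rasgrp4, which in mammals encodes an activator of RAS in mast cells. Its pileup was 10.5 in uninjured muscle, 46.4 at 9 hpi and 18.6 at 18 hpi, relative log2 changes of 1.82 and 0.93. The next region upstream, also nearest to rasgrp4, had 8.92 (control), 30.9 (9 hpi) and 16.3 (18 hpi). Both regions were high at 9 hpi and intermediate at 18 hpi, and in both the start of rasgrp4 is closer than that of ryr1b.

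A further ryr1b region (chromosome 18, 35597601 to 35601800), inside the gene and listed at 68113 bp from another annotated start (chromosome 18, 35667813), had 2.43 in control muscle, 10.2 at 9 hpi and 7.07 at 18 hpi. Its relative log2 changes were 1.48 and 1.39. An interval was called there at 9 hpi alone, so the region was listed through that interval.

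The junctophilin gene jph2 had 8 H3K27Ac regions, more than any other of the 10 genes. The one over its start (chromosome 23, 35653401 to 35658000) had 22.6 in uninjured muscle, 9.02 at 9 hpi and 4.21 at 18 hpi, with relative log2 changes of −1.46 and −2.02. Within the gene, regions with their middles 17413 and 24513 bp from the start had 18.0 (control), 6.08 (9 hpi) and 3.62 (18 hpi) at the first, and 15.4 (control), 4.51 (9 hpi) and 3.46 (18 hpi) at the second. By the deposited distances the nearest start to both is that of LOC100535333, 9447 bp from the first and 2347 bp from the second. The highest pileup of the first was 113 in control muscle, 22 at 9 hpi and 15 at 18 hpi. On the other side of the start, a region 3887 bp upstream that lies 197 bp from the start of gdap1l1 had 7.56 (control), 21.5 (9 hpi) and 19.7 (18 hpi) and rose at both times (1.17 and 1.43). That upstream region held no called interval in control and was listed through intervals after injury. Downstream of the gene, 41413 bp from its start and 1145 bp from that of tuba1b, a region had 17.4 (control), 37.7 (9 hpi) and 17.5 (18 hpi), high at 9 hpi alone.

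The start region of cacna1sb, the voltage sensor (chromosome 8, 25747601 to 25753600), was the weakest of the 10 in control with an H3K27Ac pileup of 9.77, and had 7.11 at 9 hpi and 5.03 at 18 hpi. The relative log2 changes of −0.64 and −0.68 did not reach 2-fold. Its neighbours near tmem9 and taf10 had higher pileups: 43.4 (control), 50.4 (9 hpi) and 29.5 (18 hpi) near tmem9 and 28.5 (control), 34.8 (9 hpi) and 22.5 (18 hpi) near taf10.

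**Figure D2:**
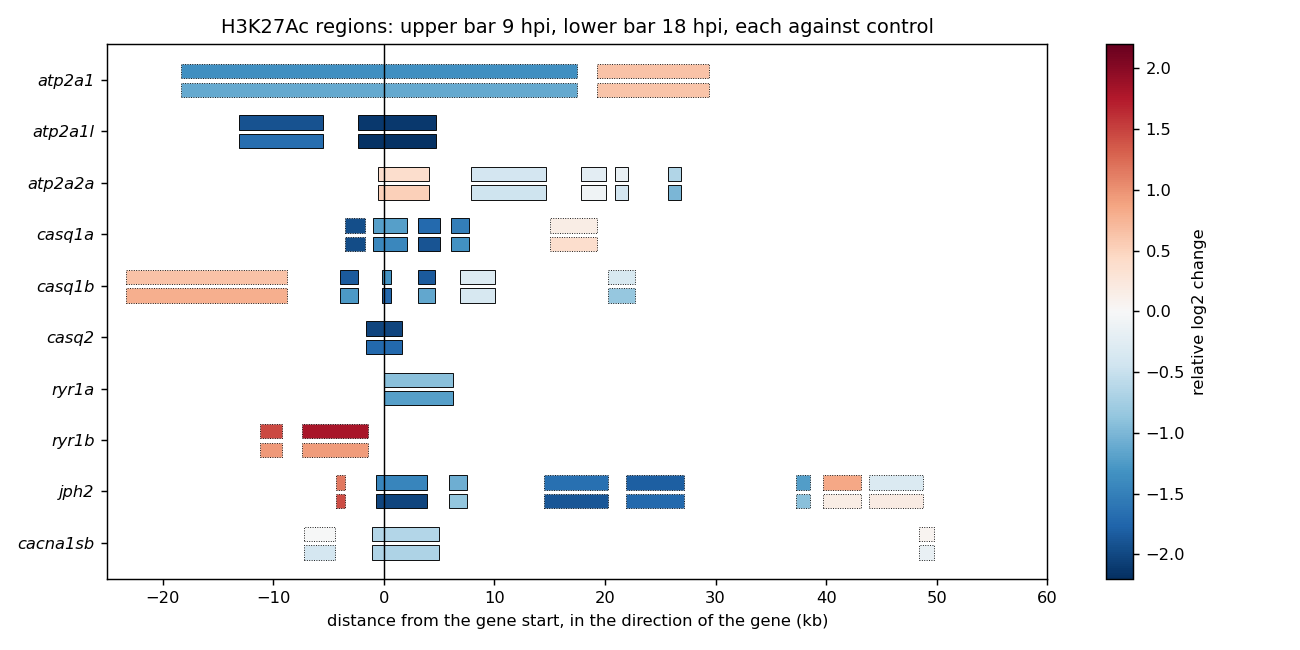
H3K27Ac regions of each gene by distance from the gene start (kb, positive in the direction of the gene); the upper bar of each pair is 9 hpi and the lower 18 hpi, coloured by relative log2 change against control. Dotted outlines are regions nearer to the start of another gene; blue bars gather at the starts and the red ones at ryr1b and upstream of jph2 have dotted outlines. The ryr1b region listed at 68113 bp from a further start lies outside the axis.

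Sorted by position, regions nearest to one of these genes and regions nearest to a neighbour differed in their counts. Of the 20 H3K27Ac regions whose nearest gene start was the gene's own, 11 fell and 1 rose at 9 hpi, and likewise 11 and 1 at 18 hpi. Of the 16 nearer to another gene, 5 fell and 3 rose at 9 hpi, and 4 fell and 1 rose at 18 hpi. Among all H3K27Ac regions with a gene, 18.7% fell and 7.9% rose at 9 hpi, and 12.8% fell and 11.1% rose at 18 hpi. Called intervals lay in 19 of the 20 regions in control, in 9 at 9 hpi and in 2 at 18 hpi. In the other 16 they lay in 15 in control, in 13 at 9 hpi and in 11 at 18 hpi. Of all H3K27Ac regions with a gene, 80.5% held an interval in control muscle, 74.6% at 9 hpi and 67.3% at 18 hpi. The whole libraries held 35692 (control), 34393 (9 hpi) and 28964 (18 hpi) intervals. The 20 regions belong to 9 genes and the 16 to 6, so they are not separate observations. Regions are unions of called intervals, so those called in control alone were listed through control, which favours falls. The 1 rise among the 20, inside ryr1b, was listed through its 9 hpi interval. The shares of all regions with a gene were not limited to those with a control interval. The difference between the sets of regions was not tested.

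H3K4me3 was also lower after injury at most of these genes. At 9 hpi, 7 of 10 start regions fell and 0 rose, against 2.84% and 3.34% of all start regions, and at 18 hpi 6 fell and 1 rose, against 3.02% and 4.41%. Of the 14417 start regions of all genes with a control interval of this mark, which all 10 had, 3.02% fell and 0.881% rose at 9 hpi, and 3.25% fell and 1.66% rose at 18 hpi. The median relative log2 change of the 10 was −1.42 for 9 hpi and −1.27 for 18 hpi, beside 0.0069 and 0.016 for all start regions. With a pseudocount of 5, 3 fell at 9 hpi and 3 at 18 hpi. Already in control, this mark was modest at the genes that fell: the 7 start regions had pileups between 11.1 and 21.95, where the median of all start regions was 27.3. Of the 10 start regions, 4 lay at or above the 25th percentile of mean signal, and of those that fell only jph2 did. The shares of all start regions given above were not matched for signal.

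At atp2a1 (chromosome 3, 26013401 to 26019000) H3K4me3 was 11.1 in uninjured muscle, 3.12 at 9 hpi and 3.33 at 18 hpi. At atp2a1l (chromosome 12, 13205201 to 13209000) it was 13.7 (control), 3.73 (9 hpi) and 3.46 (18 hpi). In both SERCA1 genes the values at 9 and 18 hpi were close to each other and well below control, and no interval was called at either time. The SERCA2 gene atp2a2a (chromosome 8, 11649201 to 11653400) did not fall, with 25.6 in control muscle, 26.1 at 9 hpi and 32.6 at 18 hpi. The medians of all start regions were 27.3, 26.2 and 27.8 at these times. At atp2a2a the relative log2 changes were 0.08 and 0.37, and an interval lay over its start at all 3 times.

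The calsequestrins again fell together in H3K4me3. The pileups were 12.5 (control), 3.30 (9 hpi) and 2.77 (18 hpi) at casq1a (chromosome 2, 38057201 to 38059600). They were 13.9 (control), 4.18 (9 hpi) and 4.04 (18 hpi) at casq1b (chromosome 7, 73529801 to 73530800). At casq2 (chromosome 9, 33293801 to 33296400) they were 11.8 (control), 3.048 (9 hpi) and 3.59 (18 hpi). The relative log2 changes ran from −1.61 to −1.47 at 9 hpi and from −1.80 to −1.45 at 18 hpi, and none of the 3 kept a called interval.

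At ryr1a (chromosome 10, 33462401 to 33465200) H3K4me3 was 14.4 in uninjured muscle, 4.72 at 9 hpi and 8.67 at 18 hpi. Its relative log2 changes were −1.37 and −0.63, and the interval that was missing at 9 hpi was called again at 18 hpi. This was the largest upward difference between 9 and 18 hpi among the 10 H3K4me3 start regions (0.73), while H3K27Ac at the same gene was lower at 18 hpi than at 9 hpi. At jph2 (chromosome 23, 35655001 to 35657600) the values were 21.95 (control), 8.93 (9 hpi) and 9.48 (18 hpi), with changes of −1.16 and −1.10, and an interval was called at all 3 times.

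The nearest H3K4me3 regions of ryr1b and cacna1sb lie at other genes' starts. For ryr1b it was 423 bp from the start of rasgrp4 (chromosome 18, 35761001 to 35763000), with 18.7 in control muscle, 35.1 at 9 hpi and 41.1 at 18 hpi and relative log2 changes of 0.93 and 1.13. For cacna1sb it was 537 bp from the start of tmem9 (chromosome 8, 25740001 to 25746000), with 34.5 (control), 31.0 (9 hpi) and 34.4 (18 hpi). Of the 8 H3K4me3 start regions that lay nearest to their own gene, 7 fell at 9 hpi and 6 at 18 hpi. Of the 6 H3K4me3 regions nearer to a neighbour, 0 fell at either time, 1 rose at 9 hpi and 2 rose at 18 hpi. Both rises at 18 hpi were the region at rasgrp4 and one nearest to tuba1b, 40413 bp from the start of jph2, with 10.8 (control), 23.2 (9 hpi) and 27.9 (18 hpi). Among all H3K4me3 regions with a gene, 3.57% fell and 3.6% rose at 9 hpi, and 3.66% fell and 4.99% rose at 18 hpi.

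**Figure D3:**
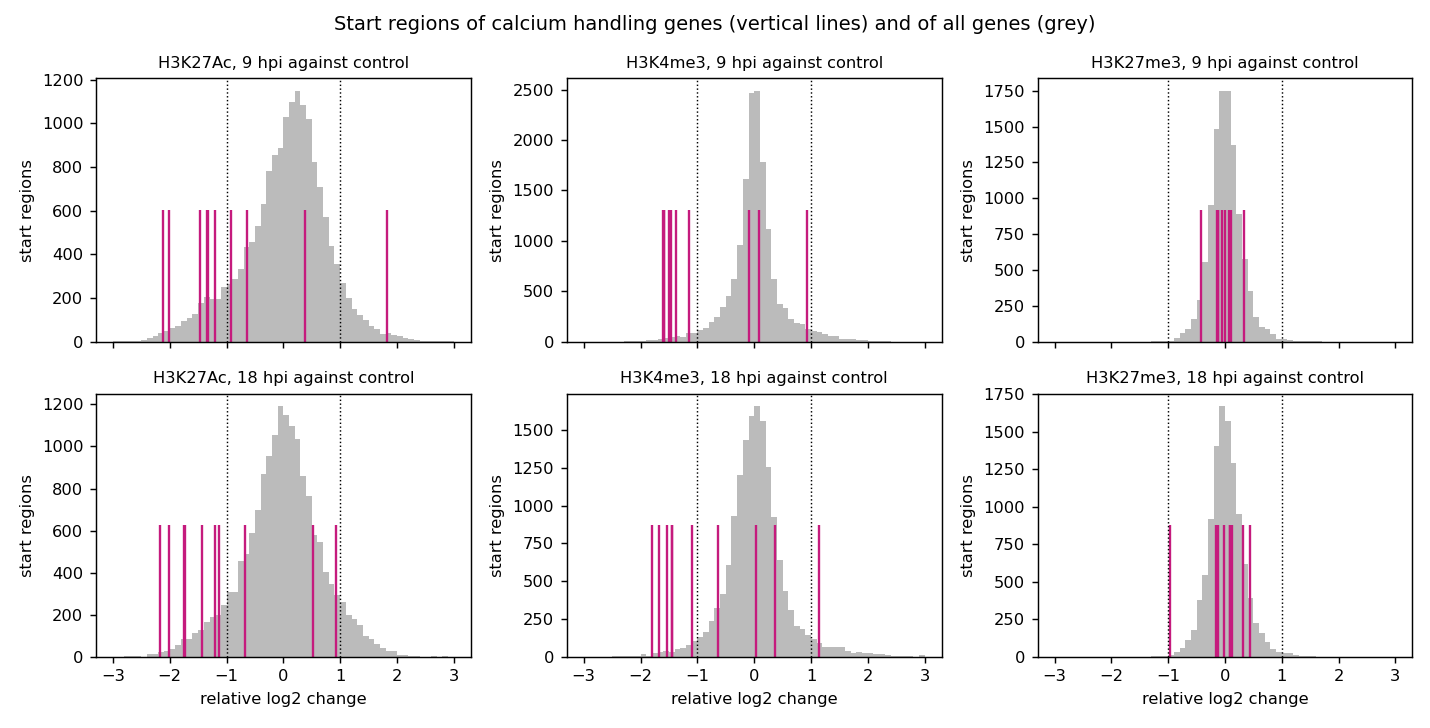
Relative log2 change against control of the start regions of the calcium handling genes (vertical lines) over the histogram of all start regions (grey, number of regions per 0.1 log2, values beyond 3 gathered in the end bars), for each mark at 9 hpi (top) and 18 hpi (bottom). Dotted lines mark 2-fold; 6 H3K27Ac and 7 H3K4me3 lines lie left of the lower one at 9 hpi, and no H3K27me3 line passes either.

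Called intervals of H3K27Ac and H3K4me3 became fewer at these genes after injury. An H3K27Ac interval lay in the start region of 10 genes in uninjured muscle, 7 at 9 hpi and 3 at 18 hpi. Of all start regions with a control interval, 11.3% had none at 9 hpi and 16.3% had none at 18 hpi. The 3 that kept one at 18 hpi were atp2a1, atp2a2a and ryr1b. For H3K4me3 it was 10 genes in control muscle, 4 at 9 hpi and 5 at 18 hpi, where 4.83% of all start regions with a control interval had none at 9 hpi and 4.57% had none at 18 hpi. Those with an H3K4me3 interval at 9 hpi were atp2a2a, ryr1b, jph2 and cacna1sb, joined at 18 hpi by ryr1a. The annotated start itself lay inside an H3K27Ac interval in 8 genes in control, 4 at 9 hpi and 2 at 18 hpi. This count was not made over all genes. The whole H3K27Ac libraries held 35692 (control), 34393 (9 hpi) and 28964 (18 hpi) intervals. The lengths that follow were not summed over all genes either, and 16 of the 36 H3K27Ac regions lay nearer to the start of another gene. Over all regions of the 10 genes, H3K27Ac intervals covered 143.6 kb in control, 78.0 kb at 9 hpi and 73.0 kb at 18 hpi. H3K4me3 intervals covered 38.2 kb, 23.0 kb and 24.0 kb at these times, and H3K27me3 intervals 83.0 kb, 57.6 kb and 101.4 kb. The H3K27me3 length at 18 hpi included 16600 bp at casq2, 12600 bp at casq1b and 10800 bp at atp2a1. These genes had no H3K27me3 interval in control or at 9 hpi. Their regions were listed through 18 hpi intervals alone, which favours the length at that time. At casq1b, 2600 bp lay in the start region. The rest lay 35673 and 42273 bp from its start, nearest to LOC103909055 and LOC103909050. The whole H3K27me3 libraries held 15593 (control), 15031 (9 hpi) and 14760 (18 hpi) intervals.

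In relative change, H3K27me3 at the start regions of these genes stayed within 2-fold of control. Before pseudocount and centring, the pileup at atp2a2a was beyond 2-fold, with 9.36 in control and 4.18 at 18 hpi. It had a start region at 9 genes, since ryr1a had no region of this mark, and 5 of these 9 covered the annotated start. The nearest region of atp2a1l had its middle 20506 bp downstream of the start, that of casq1b lay 7073 to 9672 bp into the gene, and that of casq2 began 1409 bp into it. The start region of cacna1sb began 1371 bp into the gene. None fell or rose at 9 hpi, against 0.0833% and 0.463% of all start regions, or at 18 hpi, against 0.157% and 0.694%. The 9 had a median relative log2 change of −0.05 for 9 hpi and 0.08 for 18 hpi. Most pileups were low, between 4.86 and 7.59 in control at 7 of the genes, where the median of all start regions was 8.51.

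Of these genes, atp2a2a had the largest H3K27me3 difference. Its start region (chromosome 8, 11644401 to 11652000) had 9.36 in control muscle, 6.70 at 9 hpi and 4.18 at 18 hpi. The relative log2 changes were −0.43 and −0.98, the last just short of 2-fold and at the 0.167th percentile of all start regions. The region 11167 bp into the gene had 8.74 (control), 6.67 (9 hpi) and 4.49 (18 hpi). Intervals were called in both at control and 9 hpi and in neither at 18 hpi.

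Among these genes jph2 had the highest H3K27me3 at its start. A region of 16200 bp over its start (chromosome 23, 35649601 to 35665800), which reaches gdap1l1, had 12.5 in uninjured muscle, 12.4 at 9 hpi and 12.05 at 18 hpi, with called intervals at all 3 times. H3K27Ac and H3K4me3 fell at the start of jph2 while the average H3K27me3 of this region stayed close to control. The highest H3K27me3 pileup within it was 43 in control, 69 at 9 hpi and 58 at 18 hpi. Its called interval covered 16200 bp in control, 12400 bp at 9 hpi and 9200 bp at 18 hpi. The average pileups of that interval were 12.5 (control), 14.6 (9 hpi) and 17.0 (18 hpi). The tissue was pooled, so whether the marks lay in the same nuclei is not known from these values. At atp2a1 (7.59 in control, 7.31 and 9.49 at 9 and 18 hpi), casq1b (6.04 in control, 6.59 and 6.49 at 9 and 18 hpi) and casq2 (4.86 in control, 6.36 and 6.77 at 9 and 18 hpi) the start region held an H3K27me3 interval at 18 hpi and neither in control nor at 9 hpi. Their relative log2 changes at 18 hpi were 0.31, 0.11 and 0.43. Regions are unions of called intervals, so these 3 were listed through their 18 hpi intervals alone. Their bounds therefore favour signal at that time. The other 6 start regions held one in control, of which 3 held one at 9 hpi and 3 at 18 hpi. At ryr1b, where the H3K27me3 region covers the annotated start (chromosome 18, 35753001 to 35757800), the pileup was 6.26 (control), 5.66 (9 hpi) and 5.52 (18 hpi). Inside that gene, 54084 bp from the start, a further region had 5.11 (control), 6.98 (9 hpi) and 9.24 (18 hpi). Its relative log2 change at 18 hpi was 0.77, and it was listed through an interval at that time alone. Of all start regions with a control interval, 16.3% had none at 9 hpi and 17.2% had none at 18 hpi, and of the 1569 without one, 66.3% had one at 9 hpi and 73.2% at 18 hpi.

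Between 9 and 18 hpi, no start region of the 10 genes had a relative change of at least 2-fold in any mark. Of all start regions, 0.931% fell and 0.653% rose in H3K27Ac between these times, and 0.754% fell and 0.883% rose in H3K4me3, while in H3K27me3 0.0278% fell and 0.0278% rose. The H3K27Ac changes of 18 hpi over 9 hpi ran from −0.92 at ryr1b to 0.25 at casq2, with −0.59 at jph2 and −0.46 at casq1b.

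Other genes of calcium handling were followed in a list of 99, of which 82 had a region of any mark. Genes that share a region are counted through that region once. In H3K27Ac, 11 of 79 start regions fell (13.9%) and 5 rose (6.33%) at 9 hpi, beside 9.91% and 7.04% of all start regions. At 18 hpi 13 fell (16.5%) and 9 rose (11.4%), beside 8.36% and 7.07%. A control interval lay in 70 of the 79, and the others were listed through intervals after injury. Of start regions of all genes with a control interval, 2.91% rose at 9 hpi and 2.05% at 18 hpi. Rises among the 70 alone were not counted. In H3K4me3, 5 of 72 fell (6.94%) and 1 rose (1.39%) at 9 hpi, beside 2.84% and 3.34% of all start regions. At 18 hpi 8 fell (11.1%) and 0 rose, beside 3.02% and 4.41%. In H3K27me3, 0 of 54 fell or rose at either time. The median relative log2 change of H3K27Ac in this list was 0.08 for 9 hpi and −0.05 for 18 hpi, beside −1.26 and −1.32 for the 10 genes.

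Of all start regions, 9.91% fell and 7.04% rose in H3K27Ac at 9 hpi, and 8.36% fell and 7.07% rose at 18 hpi. Of 12 genes of release channels and their partners, 2 fell (16.7%) at 9 hpi and 2 at 18 hpi, and 1 rose (8.33%) at each time. These few genes do not set the group apart from all start regions. Of 9 genes of the triad, where cell membrane and reticulum meet, 2 fell and 0 rose at 9 hpi, and 3 fell and 1 rose at 18 hpi. Most genes of both groups lay between, such as the phosphatase gene mtm1 with 30.2 (control), 52.4 (9 hpi) and 33.1 (18 hpi) and the receptor-binding fkbp1b with 24.6 (control), 20.6 (9 hpi) and 15.4 (18 hpi). H3K27Ac at trdn, whose product triadin ties calsequestrin to the ryanodine receptor, was 24.8 in control muscle, 10.1 at 9 hpi and 5.0 at 18 hpi (relative log2 changes −1.44 and −1.95). At srl, which encodes sarcalumenin, a calcium-binding protein of the reticulum, it was 40.5 (control), 20.3 (9 hpi) and 7.74 (18 hpi), with relative log2 changes of −1.19 and −2.09. At tmem38a, which encodes a potassium channel of the reticulum, it was 21.3 (control), 6.57 (9 hpi) and 4.94 (18 hpi), with relative log2 changes of −1.79 and −1.75. Of 4 listed regulators of the pump, 2 had an H3K27Ac region and both fell. Here sln (sarcolipin) had 19.6 (control), 6.99 (9 hpi) and 4.87 (18 hpi) and pln (phospholamban) 6.81 (control), 2.63 (9 hpi) and 1.40 (18 hpi). The pileups of pln all lay below 7.78, the 25th percentile of mean signal. In H3K4me3 sln did not fall, with relative log2 changes of −0.43 and −0.67. The 2 further pump genes of the list neither fell nor rose in H3K27Ac or H3K4me3 at either time.

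The other voltage sensor gene, cacna1sa, had 25.1 in uninjured muscle, 16.4 at 9 hpi and 6.29 at 18 hpi (−0.81 and −1.68). The membrane organizer cav3 had 25.4 (control), 12.0 (9 hpi) and 5.90 (18 hpi), with relative log2 changes of −1.25 and −1.78, and speg, a kinase gene of the triad, had 17.5 (control), 7.10 (9 hpi) and 3.85 (18 hpi), with relative log2 changes of −1.42 and −1.77. For the channel subunit gene cacng6a the nearest region, 35817 bp from its start, had 19.3 (control), 8.11 (9 hpi) and 5.08 (18 hpi), with relative log2 changes of −1.38 and −1.58. H3K4me3 fell at some of the same genes at 18 hpi: trdn (5.68 at 18 hpi against 13.7 in control muscle), srl (10.97 against 29.9) and speg (2.36 against 6.80). It also fell at jph1b, a second junctophilin gene (21.9 at 18 hpi against 50.8 in control muscle), at cacng6b (4.21 against 10.7), at micu3a, a regulator of calcium uptake by mitochondria (12.7 against 28.5), and at the region shared by the parvalbumin genes pvalb1 and pvalb4 (2.43 against 9.73).

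Among the genes whose H3K27Ac rose, the chaperone gene canx of the endoplasmic reticulum had 12.0 in control muscle, 37.2 at 9 hpi and 24.1 at 18 hpi (1.33 and 1.11). The parvalbumin gene pvalb7 had 3.36 (control), 16.5 (9 hpi) and 11.1 (18 hpi) in a region 17253 bp away and shared with ncf4, which encodes a subunit of the phagocyte oxidase. At s100a1, in a region shared with rrnad1 and tlr18, the pileups were 2.43 (control), 9.73 (9 hpi) and 6.48 (18 hpi). At the exchanger gene slc8a2a, in a region shared with nccrp1, they were 7.84 (control), 27.1 (9 hpi) and 19.1 (18 hpi). At jph3, the junctophilin gene of the brain in mammals, in a region shared with zcchc14, they were 7.39 (control), 17.5 (9 hpi) and 17.5 (18 hpi). At 18 hpi pvalb8, cacng6b and the membrane pump gene atp2b3a also rose, by relative log2 changes of 1.59 for pvalb8, 1.3 for cacng6b in a region 20063 bp away, and 1.12 for atp2b3a. The H3K27Ac regions of pvalb7, pvalb8, s100a1, slc8a2a and cacng6b held no called interval in control. Regions are unions of called intervals, so these were listed through intervals after injury. In H3K4me3 the 1 rise at 9 hpi was jph3 (18.9 at 9 hpi against 8.67 in control).

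**Figure D4:**
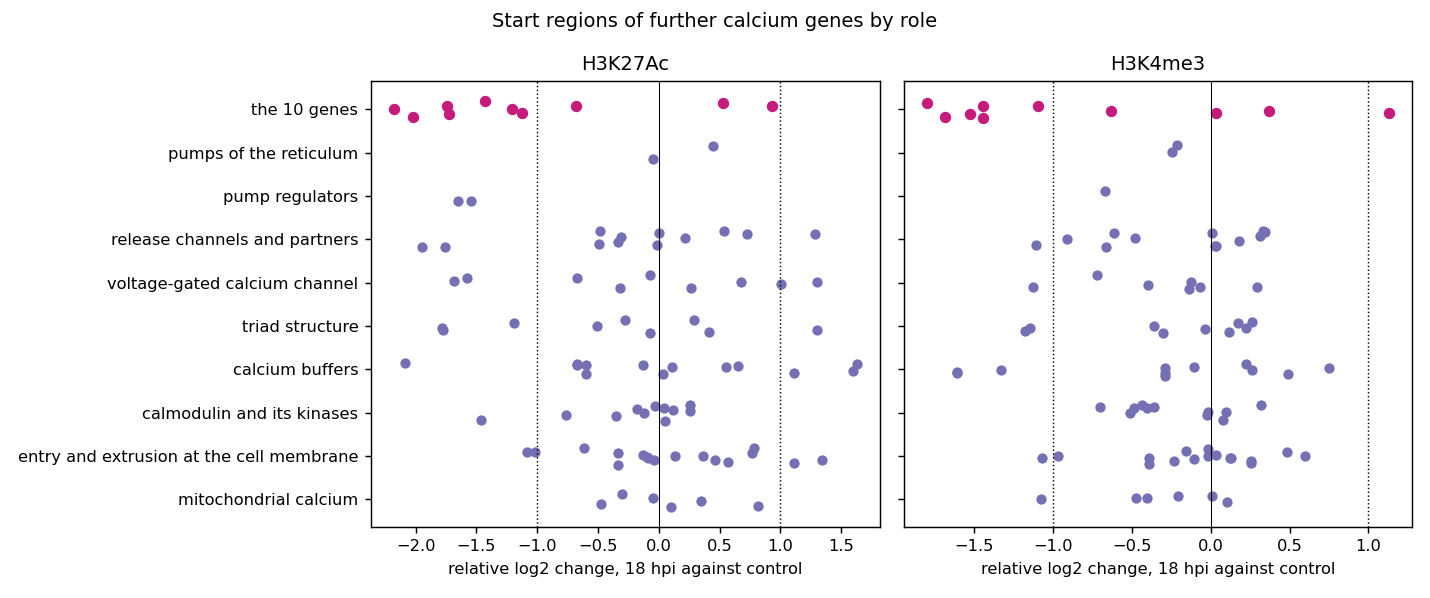
Relative log2 change at 18 hpi against control of the start regions of the 10 genes (magenta, top row) and of further calcium genes grouped by role (violet), for H3K27Ac (left) and H3K4me3 (right), 1 point per gene, moved slightly up or down for view. Dotted lines mark 2-fold, and most of the 10 genes lie left of the lower line. Of 6 mitochondrial genes, 0 fell in H3K27Ac and 1 in H3K4me3. Of 11 genes of calmodulin and its kinases, 1 fell in H3K27Ac and 0 in H3K4me3. None of either group rose. Of all start regions, 8.36% fell in H3K27Ac and 3.02% in H3K4me3 at 18 hpi.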

How the data were processed

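H3K27Ac, H3K4me3 and H3K27me3 were mapped in control muscle and at 9 and 18 hpi, with 1 library each and groups taken from the sample titles. The input is not analysed here. The submitters' processing notes name BWA, MACS2 2.1.0, SICER 12.1 and danRer10, with no settings. Intervals per library, 14760 to 35692 in number, and regions merged per mark were deposited. The deposited values are signal: average and maximum tag pileup, without division by input, and the sources used here do not give any scaling of libraries against each other. The deposited tables also give gene names, distances and the presence of an interval.

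Regions were assigned to genes by the deposited names. Measured from the middle of a region, the deposited distances gave 1 start per gene for 65 of 66 regions; coordinates count from 1. Changes used a pseudocount of 1, which understates those of weak regions, and a 2-fold threshold. The 25th percentile filter, at mean pileups of 7.78 (H3K27Ac), 12.2 (H3K4me3) and 6.51 (H3K27me3), served to find the median that was subtracted and removed no member; 9 of 10, 4 of 10 and 4 of 9 start regions lay at or above it. Shares of all start regions count each region once. Members and lists, and the roles used to group them, were chosen with earlier results of these data known. Of the 99 further genes, those named are the up to 8 of largest change at 18 hpi per mark and direction among genes past 2-fold; pln, mtm1 and fkbp1b were named after their values were seen. Neither sequences nor a genome were used. Alternatives changed the pseudocount, centring, threshold, filter and choice of region. Python 3.11.15, pandas 2.3.3 and numpy 2.4.6 were used, tested on simulated data.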

Additional observations from a re-analysis of the deposited data

How the results depend on the processing

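Each group had 1 library, so no spread is known. No paired analysis was possible because each group had 1 library. Regions sit on called intervals, and near-identical gene copies may share tags. Counts depended on the region that stood for a gene and, for H3K4me3, on the signal filter and the pseudocount. With the region of highest mean signal, 2 H3K27Ac regions fell at 9 hpi (6 with the start regions) and 3 at 18 hpi (7). With a length-weighted mean over all regions these counts were 2 and 3, and 1 rose at 18 hpi. The highest region often lay at a neighbour: at 9 and 18 hpi its H3K27Ac change was 0.65 and 0.63 for atp2a1, 0.17 and 0.39 for casq1a, 0.65 and 0.80 for casq1b and 0.85 and 0.17 for jph2, opposite to the start region. The weighted mean gave 0.24 and 0.35 for casq1b. For jph2 in H3K4me3 the highest region gave 1.1 and 1.33 and the weighted mean 0.44 and 0.54; with highest regions, 1 H3K4me3 region rose at 9 hpi and 2 at 18 hpi. Start regions within 1000 bp left 4 genes in H3K27Ac, with 4 falls at 18 hpi and 0 rises at 9 hpi, and 3 in H3K4me3, with 3 falls at 9 hpi, 2 falls and 0 rises at 18 hpi. Restricting to own starts, chosen after seeing the data, left 0 rises in H3K27Ac at 9 hpi and 0 in H3K4me3 at 18 hpi. With a pseudocount of 5, 4 H3K27Ac regions fell at 18 hpi, 3 H3K4me3 regions at 9 hpi and 3 at 18 hpi, and 0 rose in H3K4me3 at 18 hpi. The signal filter left 4 H3K4me3 genes, of which 1 fell at each time. Maximum pileups gave 0 H3K4me3 rises at 18 hpi. At a 1.5-fold threshold, 1 H3K27Ac region rose at 18 hpi and 1 H3K4me3 region at 9 hpi. In H3K27me3 at 18 hpi, 1 region, that of atp2a2a, fell with a pseudocount of 0.5, with maximum pileups and at 1.5-fold. Intervals covering 50% of the H3K27Ac start region at 9 hpi were found at 3 genes, against 7 with any interval. No other count moved by over 1.5 times, though calls of single genes did. Among them were those given for atp2a1, casq1a and ryr1a in H3K27Ac. The cause of these moves was not tested.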
